A study of Mus musculus with 12 samples.

Results

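The V0 sector and accessory subunits of the vacuolar H+-ATPase (V-ATPase) were described in primary mouse microglia by taking every row of the deposited table whose gene symbol was one of 10 names: Atp6v0a1, Atp6v0a2, Tcirg1, Atp6v0b, Atp6v0c, Atp6v0d1, Atp6v0d2, Atp6v0e, Atp6ap1 and Atp6ap2. These 10 genes, of 46262 in the table, were represented by 63 of its 115879 transcripts. The 12 libraries came from wild-type (WT) microglia of mixed glial cultures and formed 4 groups of 3: cerebellum with IL-34, cerebellum with CSF-1, forebrain with IL-34 and forebrain with CSF-1. IL-34 was given at 100 ng/ml and CSF-1 at 20 ng/ml, each for 24 h, so ligand and dose cannot be told apart, and no group lacked a ligand. The design text describes the cultures behind the replicates as independent, and p-values measure the spread between them. The deposited table is named as neonatal microglia. No exact age, sex or number of animals per culture was found in the labels, and their RNA extraction text mentions human tissue although organism and gene identifiers are mouse.

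The V-ATPase is a rotary pump that spends ATP to move protons into lysosomes, endosomes and phagosomes, or out of the cell at the ruffled border of osteoclasts. Its V1 sector lies in the cytosol and hydrolyses ATP. Its V0 sector lies in the membrane and carries the protons through a ring of proteolipid subunits held against an a subunit, with the d subunit joining the ring to the central stalk. Ap1 and Ap2 are membrane proteins bound to V0 that take part in its assembly. Microglia, like other macrophages, use acid lysosomes to digest what they engulf, and both ligands signal through the receptor CSF1R.

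Values are TPM, each transcript's share of its library after correction for transcript length, scaled to a total of 1000000. Sequencing depth cannot be read from such values. Between 11740 and 11904 genes had at least 1 TPM in a library. The 3 cerebellar libraries with IL-34 stood apart in short transcripts: those under 600 nt held 2.58, 3.31 and 0.947% of TPM there, and 0.0269 to 0.555% in the 9 others. The 10 microglial markers summed to 5379 to 5651 TPM in cerebellum with IL-34, 5872 to 6209 in cerebellum with CSF-1, 5507 to 5926 in forebrain with IL-34 and 5322 to 5733 in forebrain with CSF-1. Of the other cells a mixed culture can hold, 7 astrocyte markers summed to 14.5 to 15.7, 17.0 to 19.8, 28.8 to 31.4 and 28.8 to 31.7 TPM in the same order of groups, 10 oligodendrocyte lineage markers to 125 to 173 TPM over all libraries, 8 neuronal markers to 0.667 to 3.86 TPM with 7 of them under 1 TPM throughout, and 7 endothelial and mesenchymal markers to 3.79 to 13.2 TPM with Cldn5 listed at 0. In bulk libraries, fewer cells of a type and less RNA per cell cannot be told apart.

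All 10 members were expressed in all 12 libraries and passed the filter for testing. The proteolipid genes led: Atp6v0c, which encodes the c subunit repeated around the ring, ranged from 1079 to 1960 TPM, and Atp6v0b, which encodes the related c'' subunit, from 1082 to 1561 TPM. Atp6ap1 followed at 786 to 1066 TPM. Atp6v0e, the gene of a small hydrophobic subunit, ranged from 315 to 573 TPM, and Atp6ap2, the gene also known as the prorenin receptor, from 356 to 484 TPM. Tcirg1 (243 to 335 TPM), Atp6v0d1 (238 to 280 TPM) and Atp6v0a1 (220 to 259 TPM) formed the next rank, and Atp6v0a2 (38.2 to 46.9 TPM) and Atp6v0d2 (17.6 to 45.6 TPM) were lowest. The ranges of Atp6v0c and Atp6v0b overlapped, as did those of Atp6v0e and Atp6ap2, of Tcirg1, Atp6v0d1 and Atp6v0a1, and of Atp6v0a2 and Atp6v0d2. These ranges alone therefore gave no order inside the sets. Within every single library, however, Tcirg1 lay above Atp6v0a1. Across the replicates of a group the coefficient of variation was at most 4.28% for Atp6v0d1 and at most 19.2% for Atp6v0e.

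**Figure D1:**
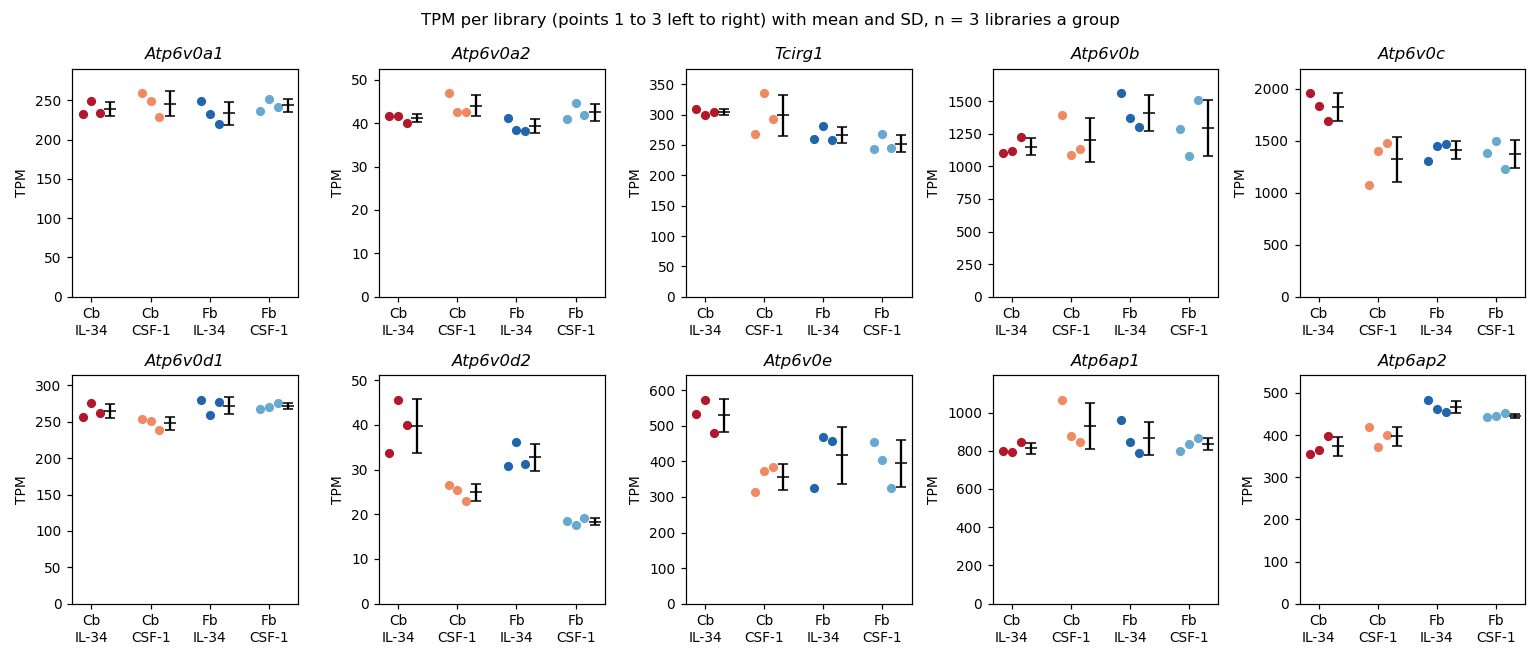
TPM of each member in each library, by group (Cb, cerebellum; Fb, forebrain; 3 points a group), with the group mean and SD in black; the axes start at 0 and differ between genes. Atp6v0d2 lay between 17.6 and 19.1 TPM in forebrain with CSF-1 and between 33.7 and 45.6 TPM in cerebellum with IL-34, while Atp6v0a1 lay between 220 and 259 TPM throughout.

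The first question was how the members differ between microglia kept in IL-34 and in CSF-1. The ligand comparison turned on Atp6v0d2, the gene of the d subunit isoform best known from osteoclasts and macrophages. It was 1.74-fold higher with IL-34 in forebrain and 1.56-fold higher in cerebellum, and it was the member that rose in both regions. In cerebellum Atp6v0c (1.39-fold) and Atp6v0e (1.48-fold) rose too, and most of both rises lay in transcripts under 1000 nt. The a subunit genes, Atp6v0b, Atp6v0d1, Atp6ap1 and Atp6ap2 did not pass the test for the ligand in either region.

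Atp6v0d2 (ENSMUSG00000028238, GRCm38 chromosome 4, 19876841 to 19922605, minus strand) had 33.7, 45.6 and 40.1 TPM in cerebellum with IL-34, against 26.5, 25.5 and 22.9 TPM in cerebellum with CSF-1. In forebrain it had 30.8, 36.1 and 31.3 TPM with IL-34, against 18.4, 17.6 and 19.1 TPM with CSF-1. All IL-34 libraries lay above all CSF-1 libraries of their region, and the lowest IL-34 library of forebrain lay above the highest CSF-1 library of cerebellum. The log2 fold change was 0.64 in cerebellum (SE 0.11, limma adjusted p = 0.00687), 0.80 in forebrain (SE 0.11, adjusted p = 0.00787) and 0.72 as the mean of both (SE 0.08, adjusted p = 0.000332). All of this signal came from its one transcript of 2539 nt, since the other, of 374 nt, was listed at 0 in every library. The change was therefore as large among transcripts of 1000 nt or more alone. It was 0.79 in cerebellum and 0.80 in forebrain when the length and GC trends of each library were removed from those transcripts as well (adjusted p = 0.000464 and 0.000508). Without the 3 cerebellar IL-34 libraries, the forebrain value was 0.80 with adjusted p = 0.0118. The forebrain call was lost when only the 6 forebrain libraries were fitted (adjusted p = 0.0823), a limma fit in which 0 of 12419 genes passed and 1646 had an unadjusted p under 0.05.

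Relative to its ubiquitous counterpart Atp6v0d1, the level of Atp6v0d2 made up 13.0 ± 1.31% of the summed d subunit TPM with IL-34 and 9.14 ± 0.345% with CSF-1 in cerebellum. In forebrain it made up 10.8 ± 1.30% with IL-34 and 6.34 ± 0.206% with CSF-1 (mean ± SD of the 3 libraries, here and in later values). Atp6v0d1 (ENSMUSG00000013160) itself had 257, 276 and 262 TPM in cerebellum with IL-34 and 254, 252 and 238 TPM in cerebellum with CSF-1. In forebrain it had 280, 259 and 277 TPM with IL-34 and 268, 271 and 275 TPM with CSF-1. Its ligand differences were 0.09 in cerebellum (SE 0.05, limma adjusted p = 0.202) and 0.00 in forebrain (95% interval -0.10 to 0.11). In cerebellum it passed with median-of-ratios scaling (0.21, adjusted p = 0.0154) and after trend removal (0.16, adjusted p = 0.0112). So the d subunit pool remained mostly Atp6v0d1 in every library, and the share of Atp6v0d2 in a library ranged from 6.10 to 14.2%.

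In counts, 1 of 10 members was called for the ligand in forebrain, where limma called 149 of 12419 genes (1.2%) at an adjusted p under 0.05, and 3 of 10 in cerebellum, where it called 1593 (12.8%). As the mean of both regions 1 of 10 was called, against 1667 genes (13.4%), so that the members' share was near the background there. All member calls were higher with IL-34, while over all genes 53 were higher and 96 lower in forebrain, 373 and 1220 in cerebellum, and 339 and 1328 for the mean. Those splits moved with the scaling. When libraries were scaled by median-of-ratios factors, 137 genes were higher and 112 lower in forebrain, 707 and 482 in cerebellum, and 709 and 614 for the mean, and this moved the median of all genes in cerebellum by 0.10. The median log2 fold change of the 10 members was 0.06 in forebrain, -0.00 in cerebellum and 0.04 for the mean, against -0.04, -0.10 and -0.07 over all genes.

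**Figure D2:**
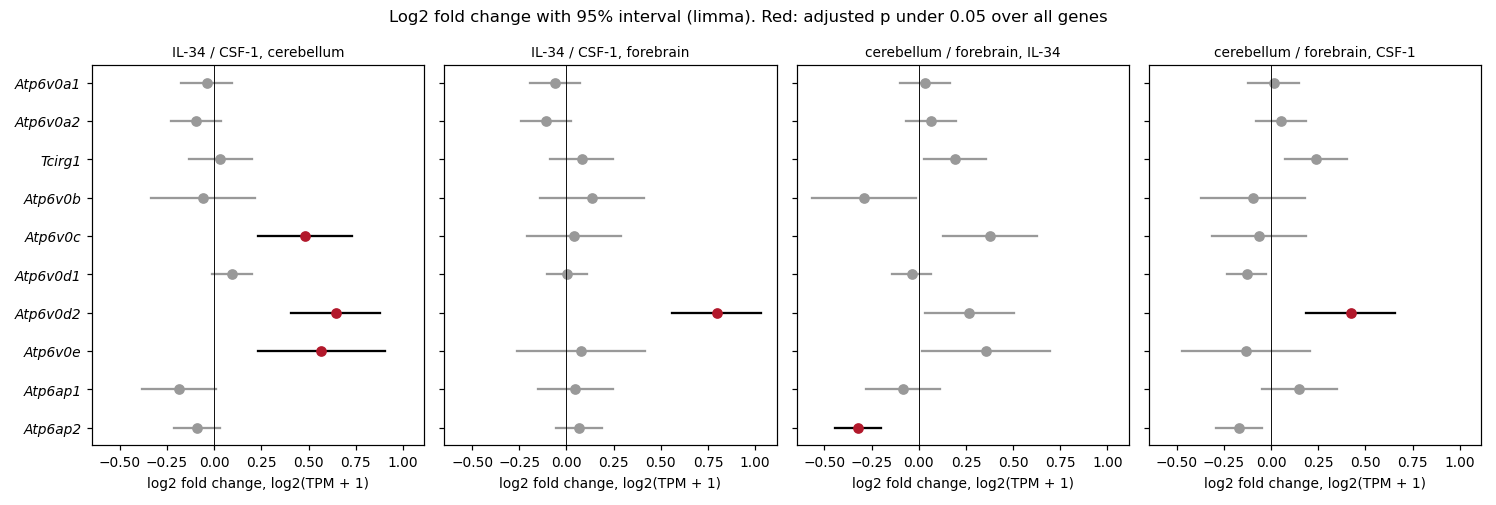
Log2 fold change of each member in 4 comparisons, on the log2(TPM + 1) scale, with 95% intervals from limma; red points passed at an adjusted p under 0.05 over all genes tested. Atp6v0d2 passed for the ligand in both regions (0.64 and 0.80), Atp6v0c (0.48) and Atp6v0e (0.57) passed in cerebellum, and Atp6ap2 lay at -0.32 between cerebellum and forebrain with IL-34.

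The a subunit anchors V0 to the stator and decides to which membrane the pump is sent, and 3 of its isoforms were measured. Tcirg1 (ENSMUSG00000001750) encodes a3, the isoform of lysosomes and of the osteoclast border, Atp6v0a1 (ENSMUSG00000019302) encodes a1, and Atp6v0a2 (ENSMUSG00000038023) encodes a2, which is found on Golgi and endosomes. Tcirg1 held 52.1 ± 1.20, 50.7 ± 3.56, 49.4 ± 1.99 and 46.9 ± 0.583% of their summed TPM in cerebellum with IL-34, cerebellum with CSF-1, forebrain with IL-34 and forebrain with CSF-1. Atp6v0a1 held 40.9 ± 1.20, 41.8 ± 2.92, 43.3 ± 1.77 and 45.3 ± 0.576%, and Atp6v0a2 between 6.80 and 8.18% in any library. Tcirg1 and Atp6v0a1 thus held most of this sum, and Atp6v0a2 was the minor form in all 12 libraries. The sum includes noncoding forms. For Tcirg1, retained-intron transcripts of 692, 2350 and 1066 nt averaged 45.9, 36.6 and 26.6 TPM over the 12 libraries. Its coding transcripts of 2688, 3041 and 2729 nt averaged 84.4, 36.1 and 29.6 TPM. Those of Atp6v0a1, of 3813, 2716, 4008 and 3967 nt, averaged 155, 33.6, 32.2 and 9.15 TPM. The shares therefore do not describe coding forms alone. Every stretch of 31 bases in the 692 and 1066 nt forms of Tcirg1 also lies in other transcripts of that gene. The same holds for the 3813 and 2716 nt forms of Atp6v0a1. The level of each of these forms, set apart from the rest of its gene, is therefore uncertain.

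None of the 3 a subunit genes passed for the ligand. The ligand difference of Atp6v0a1 was -0.04 in cerebellum (95% interval -0.17 to 0.09) and -0.06 in forebrain (-0.19 to 0.07). That of Tcirg1 was 0.03 (-0.13 to 0.20) and 0.08 (-0.09 to 0.25). That of Atp6v0a2 was -0.10 in cerebellum (-0.23 to 0.04) and -0.11 in forebrain (-0.24 to 0.02), and for the mean of both regions it was -0.10 (SE 0.04, limma adjusted p = 0.135). For that mean, Atp6v0a2 passed among transcripts of 1000 nt or more (-0.14, adjusted p = 0.0229), and Tcirg1 passed when trends were removed as well (0.15, adjusted p = 0.0212).

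Atp6v0c (ENSMUSG00000024121, chromosome 17, 24163866 to 24169702, minus strand) had 1960, 1833 and 1692 TPM in cerebellum with IL-34, against 1079, 1407 and 1476 TPM in cerebellum with CSF-1. In forebrain it had 1309, 1447 and 1468 TPM with IL-34 and 1380, 1502 and 1233 TPM with CSF-1. The groups were separate in cerebellum and overlapped in forebrain. The log2 fold change was 0.48 in cerebellum (SE 0.11, limma adjusted p = 0.0240) and 0.04 in forebrain (SE 0.11, adjusted p = 0.929). Leaving out cerebellum CSF-1 replicate 1 (0.34), cerebellum IL-34 replicate 1 (0.43) or cerebellum IL-34 replicate 2 (0.48) ended the cerebellar call, with adjusted p = 0.0649, 0.0744 and 0.0820.

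The rise in cerebellum was unevenly spread over its transcripts. The processed transcript of 607 nt had 400, 352 and 400 TPM in cerebellum with IL-34 and 0, 225 and 285 TPM in cerebellum with CSF-1. In forebrain it was listed at 0, 0 and 93.4 TPM with IL-34 and at 126, 244 and 0 TPM with CSF-1. The coding transcript of 796 nt had 269, 269 and 22.7 TPM in cerebellum with IL-34, against at most 42.9 TPM in each of the 9 other libraries. The main coding transcript of 1183 nt was steadier. It had 1281, 1202 and 1257 TPM in cerebellum with IL-34, against 1052, 1150 and 1135 TPM in cerebellum with CSF-1, and it had 1296, 1432 and 1339 TPM in forebrain with IL-34, against 1218, 1247 and 1215 TPM in forebrain with CSF-1. In both regions its IL-34 libraries lay above its CSF-1 libraries. Its ligand difference was 0.16 in cerebellum (SE 0.05, limma adjusted p = 0.0948 over 32755 transcripts), 0.14 in forebrain (SE 0.05, adjusted p = 0.474) and 0.15 as the mean of both (SE 0.03, adjusted p = 0.0478).

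Summed over transcripts of 1000 nt or more, Atp6v0c was 0.16 higher in cerebellum (SE 0.05, limma adjusted p = 0.0283), 0.14 in forebrain (adjusted p = 0.120) and 0.15 for the mean of both regions (adjusted p = 0.00626). With trends removed it passed in both regions (0.17 in cerebellum and 0.17 in forebrain, adjusted p = 0.0120 and 0.0144). Windows of 31 bases were also compared between transcripts on both strands. Of those in the 1183 nt transcript 35.2% also lie in the processed pseudogenes Gm15487 and Atp6v0c-ps1, both listed at 0 in all libraries, so the level of Atp6v0c is that of the gene and any expressed copy together.

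Atp6v0b (ENSMUSG00000033379, chromosome 4, 117884326 to 117887333, minus strand) had 1102, 1120 and 1222 TPM in cerebellum with IL-34 and 1396, 1083 and 1132 TPM in cerebellum with CSF-1. In forebrain it had 1561, 1368 and 1298 TPM with IL-34 and 1283, 1082 and 1511 TPM with CSF-1. The groups overlapped in both regions, and the ligand differences were -0.06 in cerebellum (95% interval -0.34 to 0.21) and 0.13 in forebrain (-0.14 to 0.41). Under this sum its transcripts differed. The retained-intron transcript of 779 nt had 33.6, 24.3 and 148 TPM in cerebellum with IL-34, against 522, 191 and 180 TPM in cerebellum with CSF-1, 598, 380 and 342 TPM in forebrain with IL-34 and 324, 177 and 623 TPM in forebrain with CSF-1. The coding transcript of 1000 nt had 765, 757 and 757 TPM in cerebellum with IL-34, against 571, 630 and 641 TPM in cerebellum with CSF-1, and it had 600, 681 and 670 TPM in forebrain with IL-34, against 677, 640 and 572 TPM in forebrain with CSF-1.

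The cerebellar IL-34 libraries were thus lowest in the 779 nt form and highest in the full coding form of Atp6v0b. Its other retained-intron transcripts, of 560 and 646 nt, had their highest group mean there (15.1 and 16.0 TPM). All windows of 31 bases in these 560 and 646 nt forms also lie in other transcripts of the gene, so their levels are uncertain. Summed over transcripts of 1000 nt or more, which for this gene is the 1000 nt transcript alone, IL-34 was 0.31 higher in cerebellum (SE 0.07, limma adjusted p = 0.00659) and 0.05 in forebrain. As a single transcript among all 32755 tested it had adjusted p = 0.0546 in cerebellum. Transcripts under 1000 nt held 33.7 ± 3.92% of the gene's TPM in cerebellum with IL-34 and 48.1 ± 9.58, 53.4 ± 7.15 and 50.05 ± 10.9% in cerebellum with CSF-1, forebrain with IL-34 and forebrain with CSF-1. Of the windows in the 779 nt transcript, 28.7% also lie in the gene Gm12841, which was listed at 0 in all libraries.

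**Figure D3:**
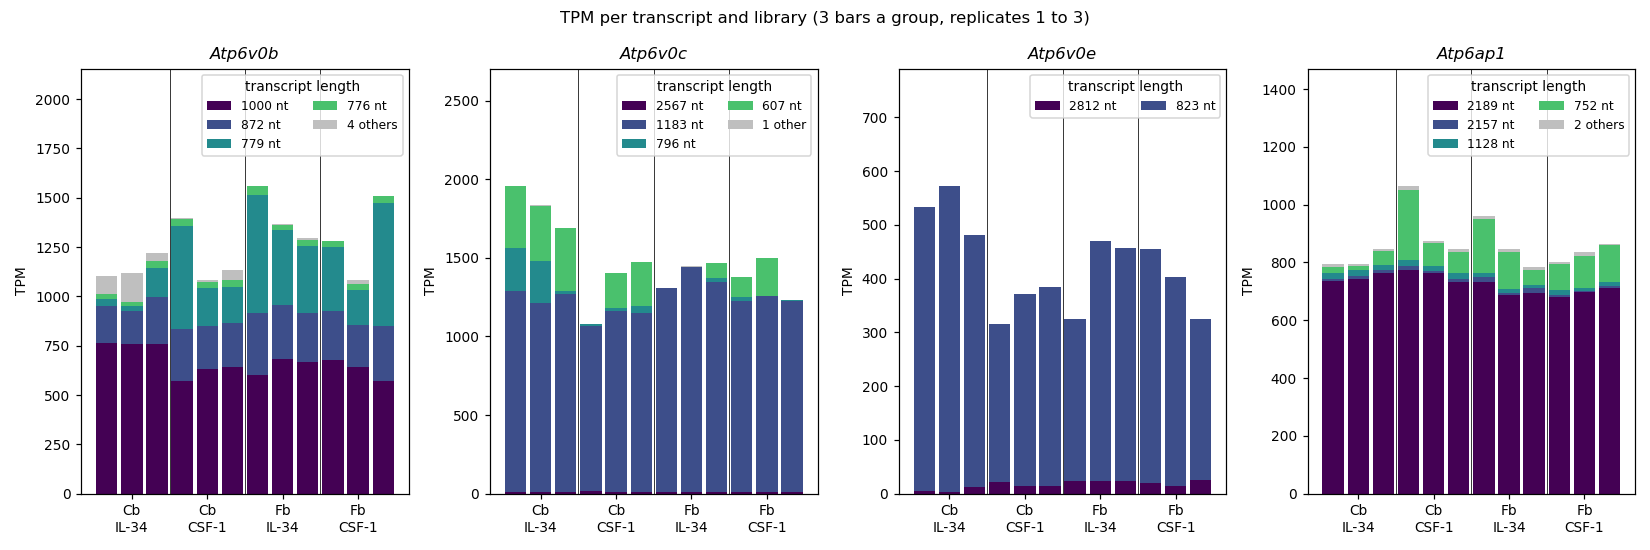
TPM per library of the transcripts of Atp6v0b, Atp6v0c, Atp6v0e and Atp6ap1, stacked, with the 4 most abundant coloured by length in nucleotides and any others in grey (Cb, cerebellum; Fb, forebrain; 3 bars a group). The 607 nt and 796 nt transcripts of Atp6v0c reached 400 and 269 TPM in cerebellum with IL-34, and the 779 nt transcript of Atp6v0b was lowest there at 24.3 to 148 TPM.

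Atp6v0e (ENSMUSG00000015575, chromosome 17, 26663231 to 26699647, plus strand) had 534, 573 and 481 TPM in cerebellum with IL-34, against 315, 372 and 384 TPM in cerebellum with CSF-1. In forebrain it had 325, 470 and 457 TPM with IL-34 and 455, 404 and 324 TPM with CSF-1. The groups were separate in cerebellum and overlapped in forebrain. The log2 fold change was 0.57 in cerebellum (SE 0.15, limma adjusted p = 0.0375) and 0.08 in forebrain (SE 0.15, adjusted p = 0.888). The cerebellar call was lost without cerebellum CSF-1 replicate 1, 2 or 3, without cerebellum IL-34 replicate 1 or 2 and without forebrain CSF-1 replicate 2 (0.48 to 0.62, adjusted p = 0.0506 to 0.130).

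A transcript of 823 nt gave 92.3 to 99.3% of the TPM of Atp6v0e. The only other transcript, of 2812 nt, had 4.04, 3.95 and 11.6 TPM in cerebellum with IL-34, against 22.1, 14.7 and 14.1 TPM in cerebellum with CSF-1, 24.3, 22.8 and 22.8 TPM in forebrain with IL-34 and 19.3, 14.1 and 25.1 TPM in forebrain with CSF-1. The longer form therefore went the other way in cerebellum. Among transcripts of 1000 nt or more Atp6v0e was -1.38 (SE 0.29, adjusted p = 0.00641) there, and -1.23 after trend removal (adjusted p = 0.0145). That value describes a form that made up 0.689 to 7.73% of the gene.

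**Figure D4:**
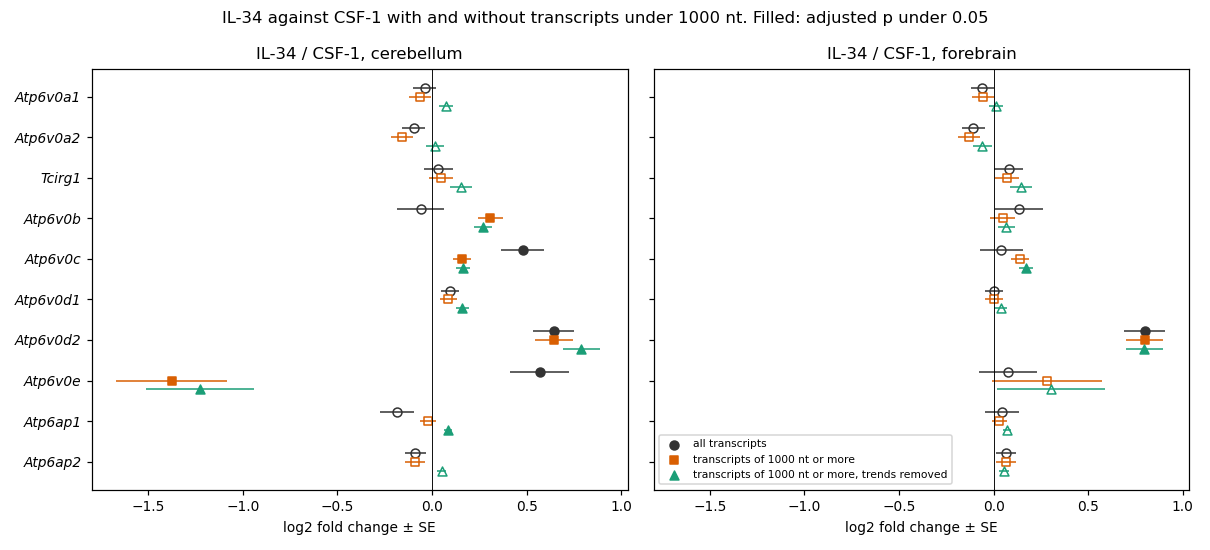
Log2 fold change ± SE of each member for IL-34 against CSF-1 with all transcripts, with transcripts of 1000 nt or more, and with the length and GC trends of those removed; filled symbols passed at an adjusted p under 0.05. In cerebellum Atp6v0c is at 0.48 with all transcripts and at 0.16 with long ones, Atp6v0e at 0.57 and -1.38, and Atp6v0d2 at 0.64 in both.

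Of the accessory genes, Atp6ap1 (ENSMUSG00000019087) had 796, 796 and 846 TPM in cerebellum with IL-34 and 1066, 876 and 847 TPM in cerebellum with CSF-1. In forebrain it had 960, 846 and 786 TPM with IL-34 and 801, 837 and 865 TPM with CSF-1. Its ligand differences were -0.19 in cerebellum (95% interval -0.38 to 0.01) and 0.05 in forebrain (-0.15 to 0.24), neither of which passed. Its main coding transcript of 2189 nt had 680 to 773 TPM over all 12 libraries, with a ligand difference of -0.02 in cerebellum (SE 0.04) and 0.02 in forebrain (SE 0.04). Its retained-intron transcript of 752 nt had 23.2, 15.4 and 47.6 TPM in cerebellum with IL-34, against 244, 79.0 and 71.5 TPM in cerebellum with CSF-1, 186, 128 and 53.1 TPM in forebrain with IL-34 and 91.1, 112 and 125 TPM in forebrain with CSF-1. Like the 779 nt form of Atp6v0b, this transcript was lowest in the cerebellar IL-34 libraries, which also held the largest shares of TPM in transcripts under 600 nt, and the part of library makeup in this was not tested. Another retained-intron transcript of Atp6ap1, of 1128 nt, averaged 19.1 TPM in cerebellum with IL-34, 19.6 TPM in cerebellum with CSF-1, 13.9 TPM in forebrain with IL-34 and 14.1 TPM in forebrain with CSF-1.

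Atp6ap2 (ENSMUSG00000031007, X chromosome, 12587801 to 12617049, plus strand) was the member that differed by region with IL-34. It had 356, 365 and 399 TPM in cerebellum with IL-34, against 484, 462 and 455 TPM in forebrain with IL-34. With CSF-1 it had 419, 372 and 400 TPM in cerebellum, against 442, 445 and 452 TPM in forebrain. All cerebellar libraries lay below all forebrain libraries with either ligand. The difference was -0.32 with IL-34 (SE 0.06, limma adjusted p = 0.00384) and -0.17 with CSF-1 (SE 0.06, adjusted p = 0.0944). The call with IL-34 held in all 12 fits that left out 1 library. Its transcript of 2324 nt carried 99.5 to 100% of the level. After removal of length and GC trends the difference with IL-34 was smaller, at -0.12 (adjusted p = 0.00490), and that with CSF-1 was -0.12 (adjusted p = 0.00734). For the ligand, Atp6ap2 was at -0.09 in cerebellum (95% interval -0.21 to 0.03) and 0.07 in forebrain (-0.06 to 0.19).

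The region comparison asks how cerebellar microglia differ from forebrain microglia under the same ligand. With IL-34 Atp6ap2 was the 1 of 10 members called, against 13.5% of genes, and with CSF-1 Atp6v0d2 was the 1 of 10, against 6.71% of genes. Atp6v0d2 was 0.42 higher in cerebellum with CSF-1 (SE 0.11, limma adjusted p = 0.0407), its cerebellar values of 22.9 to 26.5 TPM lying above the forebrain values of 17.6 to 19.1 TPM. With IL-34 it was 0.27 higher (SE 0.11, adjusted p = 0.124), and the ranges of 33.7 to 45.6 TPM in cerebellum and 30.8 to 36.1 TPM in forebrain overlapped. The call with CSF-1 was weak: it was lost without cerebellum CSF-1 replicate 1 or 2, cerebellum IL-34 replicate 3, forebrain CSF-1 replicate 1, 2 or 3 or forebrain IL-34 replicate 3 (0.38 to 0.45, adjusted p = 0.0522 to 0.123), and with the replicate number as a block (adjusted p = 0.0577).

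Tcirg1 was 0.24 higher in cerebellum with CSF-1 (SE 0.08, limma adjusted p = 0.0873), and 0.19 higher with IL-34 (SE 0.08, adjusted p = 0.118). With IL-34 its values of 309, 300 and 304 TPM in cerebellum lay above 259, 282 and 259 TPM in forebrain. With CSF-1 the cerebellar values of 268, 335 and 292 TPM overlapped the forebrain values of 243, 268 and 245 TPM. Without cerebellum CSF-1 replicate 1 the difference with CSF-1 was 0.31 and passed (adjusted p = 0.0383). Atp6v0c was 0.38 higher in cerebellum with IL-34 (SE 0.11, adjusted p = 0.0505), and its 1183 nt transcript was -0.12 (SE 0.05, adjusted p = 0.168 over transcripts), so the short transcripts set the direction of the sum. Atp6v0e was 0.36 higher with IL-34 (adjusted p = 0.150) and Atp6v0b was at -0.29 (adjusted p = 0.148).

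With CSF-1 the other region differences were within 0.17 of 0: Atp6ap1 0.15, Atp6v0a2 0.05, Atp6v0a1 0.01, Atp6v0c -0.06, Atp6v0b -0.10, Atp6v0d1 -0.13 (limma adjusted p = 0.132) and Atp6v0e -0.13. With median-of-ratios scaling Atp6v0d1 (-0.17) and Atp6ap2 (-0.21) passed with CSF-1 and Atp6v0d2 did not (0.39, adjusted p = 0.0538). With IL-34 the remaining differences were Atp6v0a2 0.06, Atp6v0a1 0.03, Atp6v0d1 -0.04 and Atp6ap1 -0.08. Marker sums of other cells also differed by region. Astrocyte markers summed to 14.5 to 19.8 TPM in all cerebellar libraries and 28.8 to 31.7 TPM in all forebrain libraries. Endothelial and mesenchymal markers summed to 3.79 to 5.90 TPM in cerebellum and 7.89 to 13.2 TPM in forebrain. Oligodendrocyte lineage markers went the other way. In cerebellum against forebrain they summed to 138 to 152 against 125 to 136 TPM with IL-34, and 166 to 173 against 131 to 153 TPM with CSF-1. S100b of the astrocyte list, under 1 TPM in every library, was also higher in cerebellum. The part of these cells in the member differences was not tested.

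Whether the ligand difference itself varied with region was tested as an interaction, for which limma called 0 of 10 members and 18 of 12419 genes (0.145%), with 2 members at an unadjusted p under 0.05. These were Atp6v0c (0.44, SE 0.16, adjusted p = 0.339) and Atp6v0e (0.49, SE 0.22, adjusted p = 0.401). For Atp6v0d2 the interaction was -0.15 (95% interval -0.49 to 0.18, adjusted p = 0.703). The calls of Atp6v0c and Atp6v0e in cerebellum and not in forebrain are therefore not shown to differ between the regions.

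By transcript, 44 of the 63 member transcripts passed the filter, and 12 were listed at 0 in every library. Of the 63, 38 were under 1000 nt and 16 under 600 nt, 9 of which were among those at 0. The ligand test called 0 of 44 in forebrain (with 12 of 32755 transcripts called, 0.0366%), 2 in cerebellum (2.67%) and 3 for the mean of both regions (2.22%). The 2 in cerebellum were that of Atp6v0d2 and a 568 nt retained-intron transcript of Tcirg1, which had 4.70, 7.54 and 1.54 TPM in cerebellum with IL-34 and was listed at 0 in all CSF-1 libraries. Of the windows of this Tcirg1 transcript, 22.1% also lie in other genes. Those sharing the most windows, Zfp799, Gm9964 and D930015E06Rik, reached 5.71, 3.80 and 19.8 TPM, so the level of this transcript is uncertain. The mean added the 1183 nt transcript of Atp6v0c. In forebrain the Atp6v0d2 transcript had the same difference as its gene, 0.80, at adjusted p = 0.0627, and 3 member transcripts had an unadjusted p under 0.05.

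Between regions, transcript tests called 0 of 44 with CSF-1 (0.803% of transcripts; 8 member transcripts at an unadjusted p under 0.05) and 5 with IL-34 (6.1%). With IL-34 the 547 nt and 560 nt transcripts of Atp6v0b were higher in cerebellum, at 56.3, 44.3 and 26.8 TPM and at 13.5, 30.3 and 1.47 TPM, and both were listed at 0 in all forebrain IL-34 libraries. The 779 nt transcript of Atp6v0b (-3.08), the 2812 nt transcript of Atp6v0e (-1.84) and the 2324 nt transcript of Atp6ap2 (-0.33, adjusted p = 0.0109) were lower in cerebellum. For the interaction, 0 of 44 passed (0.29% of transcripts; 8 member transcripts at an unadjusted p under 0.05). With 1 library left out, these counts ranged from 0 to 7 for the ligand in cerebellum and from 0 to 11 between regions with IL-34. Over all transcripts the calls then ranged from 218 to 2261 and from 601 to 3162. All member transcripts under 600 nt that were called were higher in the cerebellar IL-34 libraries, where transcripts of that length held the largest share of TPM. The 560 nt transcript of Atp6v0b and the 568 nt transcript of Tcirg1 passed the filter only through those libraries. Their direction was therefore largely set by the filter, and it carries no weight of its own.

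Atp6v0a1 illustrates splice forms of long transcripts. Its transcript of 3813 nt had 143 to 168 TPM in all libraries. Its transcript of 4008 nt had 11.97, 23.9 and 30.0 TPM in cerebellum with IL-34, 24.5, 30.9 and 34.3 TPM in cerebellum with CSF-1, 28.9, 37.2 and 39.2 TPM in forebrain with IL-34 and 41.3, 42.9 and 40.9 TPM in forebrain with CSF-1. Its transcript of 3967 nt had 32.4, 13.5 and 9.41 TPM in cerebellum with IL-34, 13.1, 5.17 and 7.42 TPM in cerebellum with CSF-1, 6.59, 3.92 and 5.65 TPM in forebrain with IL-34 and 5.08, 2.47 and 5.13 TPM in forebrain with CSF-1. Of the 31-base windows of each form, 98.8% also lie in other transcripts of the gene, and neither form passed in any comparison.

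The promoters of the members were searched for the motif CACGTG, the core of the element bound by TFEB and related MiT/TFE factors in lysosomal genes, since those factors were measured here too. Windows from 250 bases before to 50 after a RefSeq start (GRCm38.p6) were at hand for 8 of 10 members, and those of Atp6v0a2 and Atp6v0d2 were not analysed here. These 8 members had 12 windows. The motif, which reads the same on both strands, lies in 3 of the 12, from 3 members, and in 7.15% of all 32851 windows. Its longer form TCACGTGA, which contains it, lies in 2 of the 12 and in 0.974% of all. The motif TGANTCA, bound by AP-1 and searched on both strands, lies in 1 of the 12, from Atp6v0a1 (7.81% of all). GAGGAAGT, bound by PU.1 and searched on both strands, lies in 0 of the 12 (3.20% of all). The 70 bases from 50 before to 20 after the start are shown for the members with CACGTG, in the direction of transcription with that motif in capitals: Atp6v0b at chr4:117887310-117887379 (minus strand), Atp6v0d1 at chr8:105566045-105566114 (minus strand) and Atp6v0e at chr17:26676346-26676415 (plus strand).
Atp6v0b: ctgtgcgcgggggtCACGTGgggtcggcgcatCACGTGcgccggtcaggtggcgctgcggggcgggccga
Atp6v0d1: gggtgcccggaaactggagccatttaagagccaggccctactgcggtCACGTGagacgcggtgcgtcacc
Atp6v0e: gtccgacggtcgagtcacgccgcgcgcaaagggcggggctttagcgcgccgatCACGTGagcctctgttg
Atp6v0b holds the motif at both positions -36 and -18 from the start, Atp6v0d1 at -3 and Atp6v0e at 4, where the first base of the motif is counted. A match is a description of these letters and not a site of binding. Of the 9 V1 genes with a window, Atp6v1a holds CACGTG.

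Summed over the 8 V0 genes, the level was 4394 ± 105 TPM in cerebellum with IL-34, 3743 ± 88.5 TPM in cerebellum with CSF-1, 4078 ± 46.4 TPM in forebrain with IL-34 and 3885 ± 42.3 TPM in forebrain with CSF-1. The 13 genes of the V1 list summed to 3233 ± 76.4, 2878 ± 42.9, 3233 ± 40.2 and 3045 ± 64.2 TPM in the same groups. In each region all IL-34 libraries lay above all CSF-1 libraries for both sums. The ratio of V0 to V1 was 1.36 ± 0.0520, 1.30 ± 0.0435, 1.26 ± 0.0224 and 1.28 ± 0.0140. The V0 sum is dominated by Atp6v0c and Atp6v0b, and it includes the short transcripts of Atp6v0c and Atp6v0e.

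Of 9 V1 genes tested, the mean ligand contrast, which called 13.4% of all genes, called 2 higher with IL-34 and 0 lower. They were Atp6v1f, a stalk subunit (0.41, SE 0.08, limma adjusted p = 0.0106), and Atp6v1g1, a subunit of the outer stalk (0.17, SE 0.04, adjusted p = 0.0291). The mean call of Atp6v1f held in all 12 fits without 1 library. That of Atp6v1g1 held in 4 of 12, being lost without cerebellum IL-34 replicate 2 or 3, cerebellum CSF-1 replicate 1 or 2, forebrain IL-34 replicate 2 or 3 or forebrain CSF-1 replicate 2 or 3 (0.15 to 0.16, limma adjusted p = 0.0519 to 0.0732), and also with no filter (0.0660) and with the replicate number as a block (0.0546). In cerebellum, where 12.8% of all genes were called, the same genes were higher (0.70 and 0.25). Atp6v1h, a subunit that couples V1 to V0, was lower there (-0.29, limma adjusted p = 0.0348). The cerebellar call of Atp6v1g1 held in 8 of 12 such fits and was lost with no filter (0.0620) and with the block (0.0517), and that of Atp6v1h held in 7 of 12. In forebrain, where 1.2% of all genes were called, limma called 0 of 9, and 0 had an unadjusted p under 0.05. The median of the 9 was 0.11 for the mean, 0.18 in cerebellum and 0.08 in forebrain. Atp6v1a and Atp6v1e1 were at 0.15 and 0.14 for the mean without passing (adjusted p = 0.0744 and 0.0995). Median-of-ratios scaling gave 7 of 9 higher for the mean and in cerebellum, without Atp6v1h (-0.18, adjusted p = 0.117). Over all 12419 genes that scaling called 1323 for the mean and 1189 in cerebellum, 709 and 707 of them higher. Trend removal gave 6 and 5 higher and 0 lower, with Atp6v1f not measured among transcripts of 1000 nt or more and Atp6v1h at -0.05. Calls over all genes with trends removed are not given for these comparisons.

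Between regions with CSF-1, where 6.71% of all genes were called, 0 of 9 V1 genes passed and 3 had an unadjusted p under 0.05. Atp6v1a was at -0.24 (limma adjusted p = 0.0817) and Atp6v1b2 at 0.13 (adjusted p = 0.160). With IL-34, where 13.5% of all genes were called, Atp6v1h was lower in cerebellum (-0.44, SE 0.08, adjusted p = 0.00431) and Atp6v1f higher (0.41, SE 0.12, adjusted p = 0.0448). Atp6v1h was -0.12 after trend removal and still passed (adjusted p = 0.0341). Atp6v1f lost its call with median-of-ratios scaling (adjusted p = 0.0580) and kept it in 6 of 12 fits without 1 library. The other V0 genes were at low or flat levels: Atp6v0a4, the kidney a4 form, was listed at 0 in every library, Atp6v0e2 averaged 3.39, 4.31, 3.70 and 4.39 TPM in the 4 groups, and Rnasek 151, 134, 151 and 155 TPM. Of the 2 tested, 0 passed in any comparison, and 0 had an unadjusted p under 0.05.

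**Figure D5:**
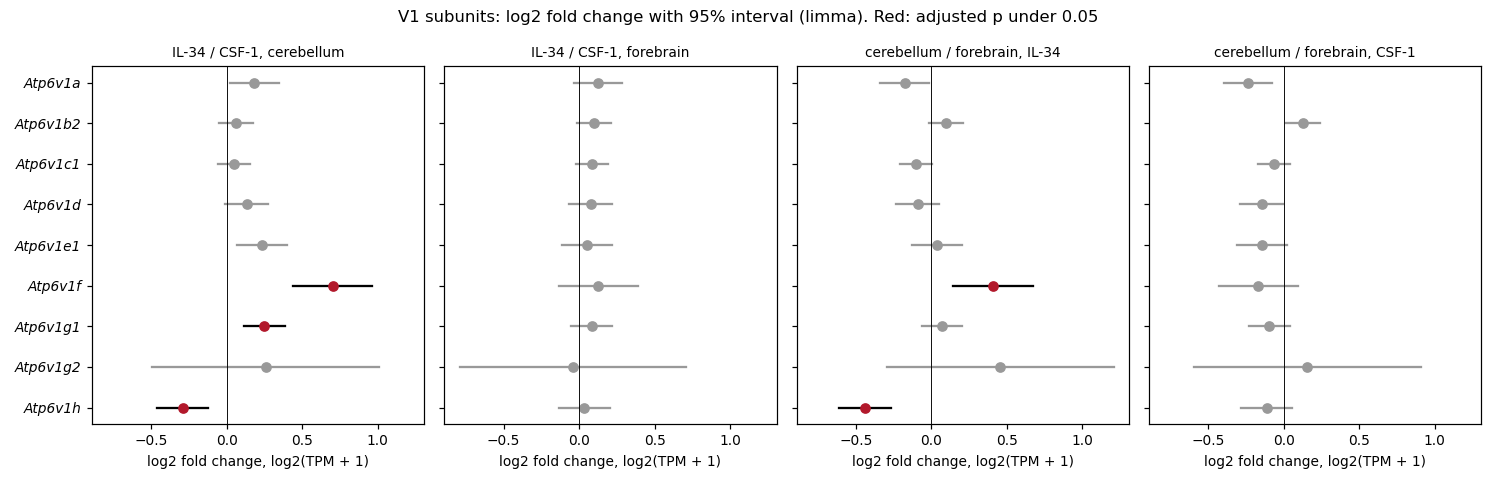
Log2 fold change of the 9 V1 genes tested, on the log2(TPM + 1) scale, with 95% intervals from limma; red points passed at an adjusted p under 0.05. Atp6v1f and Atp6v1g1 lay at 0.70 and 0.25 for the ligand in cerebellum, and Atp6v1h at -0.29 there and at -0.44 between regions with IL-34.

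Genes that work with the pump were tested as 4 further lists for the ligand as the mean of both regions, a contrast in which 13.4% of all genes were called. Of 11 assembly factors and regulators 0 passed (2 at an unadjusted p under 0.05), with Dmxl1, a rabconnectin that helps V1 and V0 to join, at -0.31 (limma adjusted p = 0.0554) and Ccdc115 at -0.14 (adjusted p = 0.0768). Of 11 lysosomal channels and exchangers 1 was lower: Clcn5, a chloride-proton exchanger (-0.56, SE 0.11, adjusted p = 0.00852). Of 9 Ragulator and Rag genes, whose products hold mTORC1 at the lysosome beside the pump, 2 were higher: Rragd (0.33, SE 0.06, adjusted p = 0.00580) and Lamtor5 (0.26, SE 0.06, adjusted p = 0.0205). Of 4 MiT/TFE genes 0 passed, and 0 had an unadjusted p under 0.05. The calls of Clcn5 and Rragd for the mean held in all 12 fits without 1 library. That of Lamtor5 held in 9 of 12, being lost without cerebellum IL-34 replicate 2 or forebrain IL-34 replicate 2 or 3 (adjusted p = 0.0516 to 0.0549), and with no filter (0.0514). In cerebellum alone, where 12.8% of all genes were called, 0 higher and 1 lower of the assembly factors, 0 and 2 of the channels, 2 and 0 of the Ragulator and Rag genes and 0 and 0 of the MiT/TFE genes passed. These were Dmxl1 (-0.50), Clcn5 (-0.70), Clcn3 (-0.35), Lamtor5 (0.51) and Rragd (0.39), and their calls held in 5, 9, 8, 12 and 9 of 12 fits without 1 library in that order. Of 7 other alternatives, Dmxl1 was called in 2 and Clcn3 in 3. Both calls were lost with no filter, median-of-ratios scaling, only the groups compared and trend removal. Like Atp6v1f, Lamtor5 was not measured among long transcripts, with or without trend removal. Its fits without 1 library therefore all used its shorter transcripts. The part of the short transcripts of the cerebellar IL-34 libraries in its rise was not tested.

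Between regions, 13.5% of all genes were called with IL-34 and 6.71% with CSF-1. Mitf, a MiT/TFE factor, was higher in cerebellum with IL-34 (0.40, limma adjusted p = 0.00596) and with CSF-1 (0.49, adjusted p = 0.00309), and Tfeb was at 0.36 with IL-34 (adjusted p = 0.0356) and 0.28 with CSF-1 (adjusted p = 0.122). Among transcripts of 1000 nt or more Tfeb did not pass with IL-34 (0.21, adjusted p = 0.0829). Mcoln3, an endolysosomal cation channel, was lower in cerebellum (-0.88 with IL-34 and -0.95 with CSF-1), and Tpcn1, an endolysosomal two-pore channel, was higher (0.37 and 0.45), all 4 past the threshold. In all, the channel list had 2 higher and 1 lower with IL-34, and 1 higher and 2 lower with CSF-1. Rogdi was higher with IL-34 (0.53, adjusted p = 0.0253). The calls of Rogdi and Tfeb with IL-34 each held in 7 of 12 fits without 1 library, and both were lost with no filter. Of the Ragulator and Rag list 0 of 9 passed with either ligand, with 3 at an unadjusted p under 0.05 with IL-34 and 1 with CSF-1. These values are set beside those of the members because the same compartment is concerned, and no member other than Atp6ap2 and Atp6v0d2 passed there by the same test.

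Atp6v0d2 is known from osteoclasts, so other genes of that cell were read beside it. Of 9 tested, 1 rose with IL-34 and 2 fell as the mean of both regions, where 13.4% of all genes were called. Ctsk, a collagen-degrading cathepsin (0.44, SE 0.12, limma adjusted p = 0.0309), rose. Tnfrsf11a, the RANK receptor (-0.33, SE 0.04, adjusted p = 0.000430), and the integrin Itgb3 (-0.43, SE 0.12, adjusted p = 0.0361) fell. Itgb3 lay near the level of the filter, at 0.631 to 2.04 TPM over all libraries, while Tnfrsf11a had 182 to 268 TPM. The call of Tnfrsf11a held in all 12 fits without 1 library. That of Ctsk held in 4 of 12, being lost without cerebellum IL-34 replicate 1 or 3, cerebellum CSF-1 replicate 1 or 3, forebrain IL-34 replicate 2 or 3 or forebrain CSF-1 replicate 2 or 3 (0.37 to 0.44). That of Itgb3 held in 3 of 12, being lost without cerebellum IL-34 replicate 1 or 2, any cerebellum CSF-1 replicate, forebrain IL-34 replicate 2 or 3 or forebrain CSF-1 replicate 2 or 3 (-0.45 to -0.35). Both were also lost with no filter (limma adjusted p = 0.0786 for Ctsk and 0.0550 for Itgb3) and with the replicate number as a block (0.0528 and 0.0628). Between regions 1 of the 9 was higher and 3 were lower with IL-34, and 2 were higher and 3 lower with CSF-1. Over all genes 13.5% were called with IL-34 and 6.71% with CSF-1. Nfatc1, a transcription factor of osteoclast formation, was higher in cerebellum (0.31 with IL-34, adjusted p = 0.0128, and 0.33 with CSF-1, adjusted p = 0.0169), and Tnfrsf11a was higher with CSF-1 (0.23, adjusted p = 0.0266). The calls of Nfatc1 held in 10 and 9 of 12 fits without 1 library, and that of Tnfrsf11a in 8. Ctsk was lower in cerebellum (-1.92 with IL-34 and -1.74 with CSF-1), as were Mmp9 (-1.25 and -1.37) and Acp5 (-0.68 and -0.60), all past the threshold, while Atp6v0d2 was at 0.27 and 0.42. Ctsk averaged 3.48 ± 1.01 TPM in cerebellum with IL-34, 2.48 ± 0.415 TPM in cerebellum with CSF-1, 15.7 ± 0.175 TPM in forebrain with IL-34 and 10.6 ± 1.32 TPM in forebrain with CSF-1. Mmp9 was low, at 0.864, 1.25, 3.41 and 4.78 TPM in the same order of groups. Calcr, Oscar and Ocstamp stayed below the level needed for testing.

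The 5 protein-coding genes whose levels followed Atp6v0d2 most closely over the 12 libraries, among 8998 with a mean of at least 5 TPM, were Pla2g7 (Pearson r = 0.962), Cxcr4 (0.959), Gstm1 (0.958), Gpnmb (0.957) and Ctsh (0.955), on log2(TPM + 1). Pla2g7 averaged 615 ± 10.96, 458 ± 28.0, 522 ± 9.11 and 378 ± 5.28 TPM in cerebellum with IL-34, cerebellum with CSF-1, forebrain with IL-34 and forebrain with CSF-1. Cxcr4, a chemokine receptor, averaged 40.2 ± 2.55, 26.9 ± 1.83, 33.5 ± 2.56 and 22.01 ± 1.42 TPM, and so had nearly the same level and order of groups as Atp6v0d2. Gpnmb, a glycoprotein of lysosome-rich macrophages, averaged 3490 ± 72.6, 2828 ± 182, 3326 ± 155 and 2469 ± 47.3 TPM. The 12 points share 4 groups and a common scaling, and these values are a description with no test.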

How the data were processed

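RNA sequencing of 12 microglial libraries was deposited by the authors as TPM per transcript, made with kallisto 0.43.0 against GRCm38, per the submitters' processing notes. The annotation release and read numbers were not found in the labels. TPM were summed per Ensembl gene identifier, and each of the 10 members had a single identifier. Lengths, biotypes and coordinates came from the GENCODE M21 annotation of GRCm38, which held 114255 of 115879 transcripts (98.6%). The 12419 genes that reached 1 TPM in 3 or more of the 12 libraries were fitted on log2(TPM + 1) with limma 3.58.1 in R 4.3.3 (4 group means, trended empirical Bayes, two-sided), with Benjamini-Hochberg adjustment over all genes and calls at an adjusted p under 0.05. Fold changes are on that scale, which understates low genes. The procedure was tested on simulated data. No pair of libraries (0 of 66) was identical.

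Alternatives were a pseudocount of 0.1, no filter, median-of-ratios scaling, a replicate block, only the groups compared, leaving out each library, transcripts of 1000 nt or more, these with each library's length and GC trends removed, and, chosen after seeing the data, leaving out the 3 cerebellar IL-34 libraries. All members are named, with up to 4 genes of each other list by p for the mean ligand contrast, up to 2 for each region contrast, and the 5 genes most like Atp6v0d2. Genes called in a list but outside that rule (Acp5, Nfatc1, Clcn3 and the region value of Tnfrsf11a) were named after their values were seen. Members and lists were chosen with earlier results of these data known.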

Additional observations from a re-analysis of the deposited data

How the results depend on the processing

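The count of members called for the ligand in forebrain (1) was 0 with only the groups compared and 2 with trends removed. In cerebellum (3) it was 1 with no filter and 6 with trends removed. For the mean of both regions (1) it was 3 with median-of-ratios scaling, 4 with transcripts of 1000 nt or more and 6 with trends removed. Between regions with CSF-1 (1) it was 0 with no filter, 0 with the replicate block, 2 with median-of-ratios scaling, 3 with transcripts of 1000 nt or more and 4 with trends removed. With IL-34 (1) it was 2, 3 and 5 with only the groups compared, long transcripts and trends removed. Without 1 library the counts were 1 to 1, 1 to 3, 1 to 3, 0 to 1 and 1 to 2 in these 5 comparisons, and 0 to 0 for the interaction. Over all genes they were then 29 to 163, 299 to 1769, 925 to 2081, 413 to 918 and 838 to 1772, and 12 to 132 for the interaction. Counts over all genes with trends removed are not given for cerebellum, the mean or region with IL-34. The member counts with trends removed there, and all those above for region with IL-34, are therefore not set against a background.

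Where the main or the other value was called, signs turned with long transcripts, without and with trend removal, for Atp6v0b (cerebellar ligand 0.31 and 0.27; region with IL-34 0.23 and 0.25) and Atp6v0e (-1.38 and -1.23; -1.84 and -1.70). With trend removal alone they turned for Atp6ap1 (cerebellar ligand 0.085, mean 0.077, region with IL-34 0.14). Some signs turned with neither value called, among them those of Atp6v0c in region with IL-34 (-0.12 and -0.095) and of Atp6v0e for the mean (-0.55 and -0.46). The cause was not tested.

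Over all genes, calls for the ligand in forebrain (149) were 87 with no filter, 249 with median-of-ratios scaling, 83 with the replicate block, 0 with only the groups compared, 98 without the 3 cerebellar IL-34 libraries, 431 with long transcripts and 892 with trends removed. In cerebellum (1593) they were 830, 986, 778 and 2570 with no filter, the block, only the groups compared and long transcripts. The mean (1667) gave 1106 with no filter and 2725 with long transcripts, the interaction (18) gave 1 with long transcripts and 1 with trends removed, and region with CSF-1 (833) gave 456, 1450 and 1804 with only the groups compared, long transcripts and trends removed. Replicate numbers showed no clear pairing of the libraries. With group means removed, 5 of 18 same-numbered pairs correlated above 0.1, against 9 of 36 pairs of other numbers. With 3 libraries a group, such correlations cannot exclude a pairing. The block ended the calls of Atp6v0e in cerebellum (adjusted p = 0.0553) and of Atp6v0d2 between regions with CSF-1 (adjusted p = 0.0577). No filter also ended those calls (0.0977 and 0.0849) and that of Atp6v0c in cerebellum (0.0690), which only the groups compared ended too (0.0656). Read numbers are unknown, so no counting error could be given.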
